A study of Danio rerio with 2 samples.

Results

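The complement factors are a group of blood and tissue proteins of innate immunity, and 10 zebrafish genes for them were listed by name: cfd, c1qa, c1qb, c1qc, c3a.1, cfb, c6, c9, cfh and cfp. Probe sets, the units in which the array reports a transcript, were matched to these names through the platform annotation, with symbols updated from a RefSeq gene table. A gene symbol matched 5 of the names, and c6 matched through a synonym of c6.2 in the RefSeq table. Thus 6 of the 10 genes were measured, with 9 probe sets, among 8793 named genes in all. The genes c1qa, c1qb, cfb and cfh matched no named probe set and were not analysed here.

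Complement works as a cascade of proteins that cleave or bind one another. The classical pathway starts when C1q binds antibodies or altered surfaces, and the alternative pathway runs through factors B and D with properdin as its stabilizer and factor H as its brake. Both cleave C3, whose fragments coat targets and call in leukocytes, and the terminal components, from C5 to C9, build a pore in membranes. In mammals the liver makes most circulating complement, while C1q comes largely from macrophages and related cells, and properdin from neutrophils and other leukocytes.

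The hearts came from adult zebrafish, a species that regrows heart muscle after injury. In every fish about 20% of the ventricle had been amputated at the apex, and fish were then exposed to water or to atropine, a blocker of muscarinic acetylcholine receptors. Whole hearts were collected 24 hours later, and RNA of 15 pooled hearts per condition was measured on 1 array for water and 1 array for atropine. The comparison asks which transcripts differ early in regeneration when atropine is present. The labels give no strain, sex, age in months or atropine dose, and no uninjured heart is among the 2 samples.

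With 1 array per condition no value has an error, no difference has a replicate check and no p-value is given; precision is limited by the array number. The values are deposited on a scale read here as log2, ran from 2.02 to 14.05, and correlated between the arrays at r = 0.994 across the 15502 probe sets that are no controls, a correlation across genes rather than across replicates. Differences are atropine minus water on that log2 scale, as deposited. To be compared, a probe set had to reach, on its brighter array, a value of 4.05, the median of all non-control values, and 5294 named genes were compared in this way. In these whole-heart pools, fewer cells of a type and less RNA per cell cannot be told apart. The hearts carried abundant transcripts of heart muscle on both arrays, with myl7 (a heart muscle myosin light chain) at 13.23 in water and 13.21 in atropine and actc1a (an actin) at 13.37 and 13.14.

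Of the measured complement genes, cfd, c1qc, c6 and cfp lay above the median on both arrays. The genes c3a.1 and c9 lay below it on both, with all of their probe sets. Of all 8793 named genes, 5294 passed the level filter. Among the brighter genes, cfd and c1qc were lower in the atropine pool by more than 1.5-fold, c6 was lower by less than that, and cfp was slightly higher. In the order of these differences, the 2 measured genes of the alternative pathway stood at the opposite ends. No other pathway had several genes past the level filter, so whether the order follows the pathways cannot be seen.

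In the classical pathway, c1qc, which encodes the C chain of C1q, stood at 8.19 in water and 7.40 in atropine. This is a difference of -0.79, or 1.73-fold lower in atropine, and both values lay well above the median. By this difference c1qc ranked at place 40 from the lowest of the 5294 genes compared. The genes for the A and B chains lie next to c1qc in the gene order of the RefSeq table, but only the C chain gene has a value here.

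In the alternative pathway, cfd encodes factor D, the serine protease that cuts factor B once it is bound to C3b. It stood at 7.97 in water and 6.79 in atropine, a difference of -1.18, which is 2.27-fold lower. It was the only complement gene past 2-fold and ranked at place 12 from the lowest of the 5294 genes. By contrast, cfp, the gene for properdin, stood at 8.89 in water and 9.07 in atropine, a difference of 0.18 or 1.13-fold higher. Of the compared genes, 18.8% had a difference at least that high, so cfp lay within the bulk of genes. The difference between the atropine-minus-water values of cfd and cfp has no replicate check either.

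The central component is represented by c3a.1, one of several zebrafish C3 genes. Its first probe set stood at 3.53 in water and 3.74 in atropine, and its second at 2.42 and 2.64. The differences, 0.21 and 0.22, were close to each other, but all 4 values lay below the median. At such levels, and without detection calls, the sources used here do not show whether the transcript was above background.

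In the terminal pathway, c6 is a synonym of c6.2, 1 of 2 zebrafish genes for component C6, which joins the growing pore after C5b. The files do not show whether its probes separate it from c6.1. The probe set stood at 9.64 in water and 9.17 in atropine, a difference of -0.47 or 1.38-fold lower, and ranked at place 222 from the lowest. The gene for C9, the component that forms the wall of the pore, gave values below the median on each of its 3 probe sets. These stood at 3.31 in water and 2.997 in atropine, at 2.61 and 2.81, and at 2.55 and 2.44. The last probe set can take up related transcripts by its name. Both the second and the last were among the probe sets dropped for doubtful specificity by name in a setting below. The sign of the c9 difference varied among the probe sets (-0.31, 0.20 and -0.11), so no direction is given for c9.

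**Figure D1:**
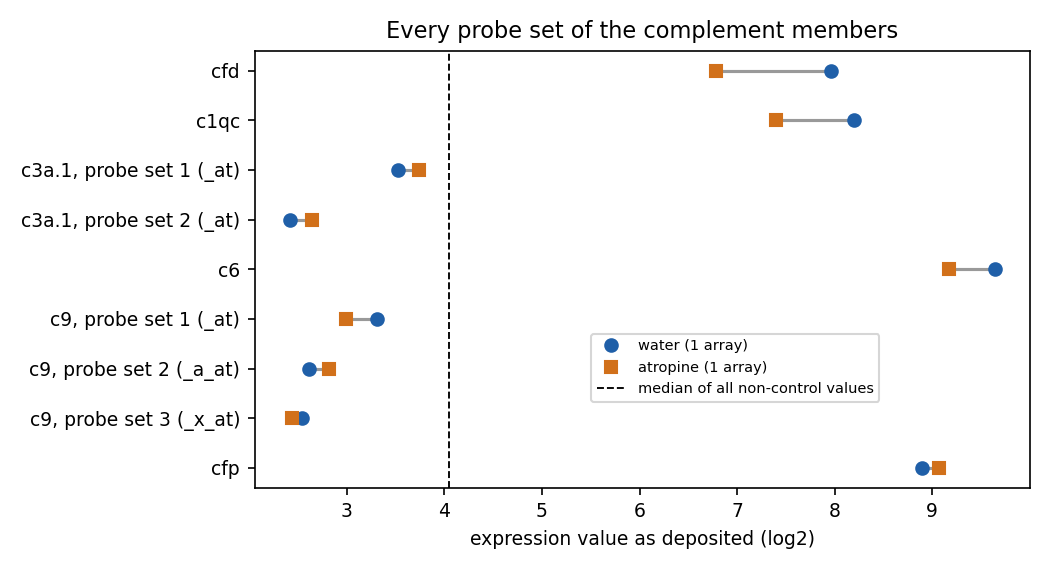
Deposited log2 expression value (horizontal axis) of each of the 9 probe sets of the measured complement genes, with the water array as circles, the atropine array as squares and the median of all non-control values, 4.05, as a dashed line. The probe sets of cfd, c1qc, c6 and cfp lie to the right of the line on both arrays, and those of c3a.1 and c9 lie to its left.

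Counted together, 3 of the 4 complement genes past the level filter were lower in atropine, where 52% of all compared genes were lower and 47.8% higher. By size, 2 of the 4 were at least 1.5-fold lower, where 2.12% of all compared genes were, and 0 were at least 1.5-fold higher, where 1.87% of all were. At 2-fold, 1 was lower, where 0.359% of all were. The median difference of the 4 genes was -0.63, against -0.01 for all compared genes. With c3a.1 and c9 included, which means no filter on level, the median of the 6 genes was -0.39 against 0.00 for all 8793 named genes, and 2 of the 6 were at least 1.5-fold lower, where 1.33% of all were, and 0 higher by that much, where 1.13% of all were. A handful of genes chosen with earlier results of these arrays known says nothing of complement as a whole.

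**Figure D2:**
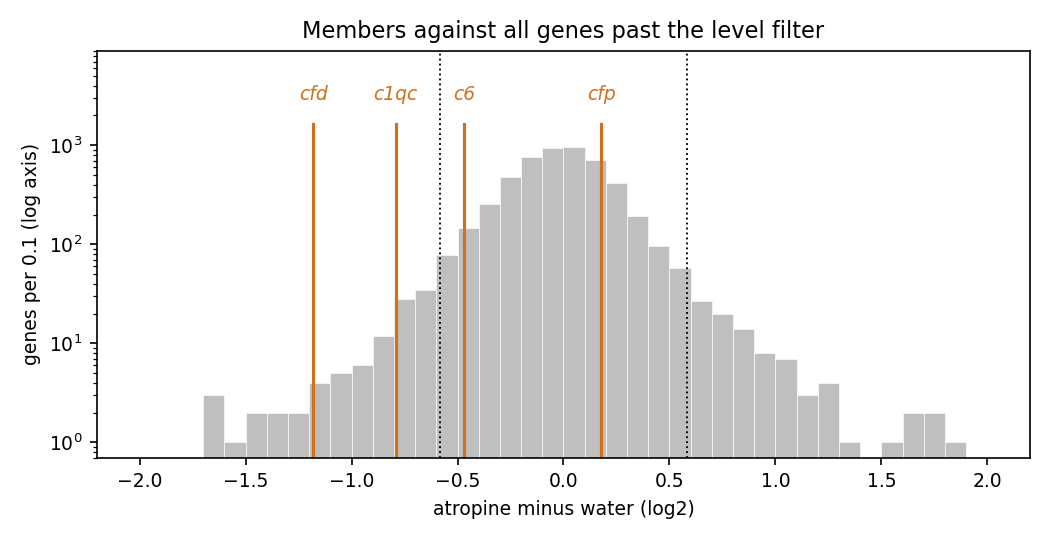
Histogram of the difference atropine minus water (log2, horizontal axis) for the 5294 named genes past the level filter, with the number of genes per bin of 0.1 on a log axis, dotted lines at 1.5-fold and vertical lines at the complement genes. The lines of cfd (-1.18) and c1qc (-0.79) stand in the sparse lower tail, c6 (-0.47) stands inside the 1.5-fold line and cfp (0.18) in the bulk.

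No other measured gene of the cascade or its regulators reached 1.5-fold. Of 53 further names, 18 genes were measured and 5 passed the level filter, where 5294 of all 8793 named genes passed. Of the 5, 0 were at least 1.5-fold lower or higher, where 2.12% and 1.87% of all compared genes were. Thus 0 of 5 does not set them apart. Their median difference was -0.15. The clusterin gene clu, whose product binds terminal complexes and keeps them out of membranes, stood at 6.87 in water and 6.52 in atropine. The gene for carboxypeptidase N, cpn1, which inactivates the C3a and C5a peptides, stood at 6.43 and 6.08. For c4b, a zebrafish gene for component C4 of the classical pathway, the values were 6.05 and 5.92. The neighbour of c6.2 in the gene order is c7b, for terminal component C7, which stood at 4.86 and 4.71, a difference of -0.15 beside -0.47 for c6. The regulator gene rca2.1 was the only one of the 5 higher in atropine, at 6.54 in water and 6.78 in atropine, with a second probe set at 6.59 and 6.70 in the same direction. The other 13 genes, among them the protease gene masp2, mbl2 for mannose-binding lectin, cfi for factor I and the pore genes c8b and c8g, had both values below the median.

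As deposited, most markers of leukocytes were lower in atropine on the same arrays. Of 18 macrophage names 14 genes were measured, all past the filter, and 5 were at least 1.5-fold lower in atropine, where 2.12% of all compared genes were, and 0 higher by that much, with a median of -0.49. Their summed linear signal was 8006 in water and 5967 in atropine. The differences ran from -1.63 for cd74a (MHC class II invariant chain) to 0.10 for csf1ra (a macrophage growth factor receptor). The brightest of them, the granulin gene grna.1 and lgals3bp.1, stood at 11.18 and 10.004 in water and at 11.15 and 9.13 in atropine. The 5 genes at least 1.5-fold lower were cd74a, cd74b, lgals3bp.1, apoeb and spi1b. The genes marco (-0.36), cd68 (-0.32) and csf1ra were not among these 5. How specific each listed gene is to macrophages was not tested. Of 13 neutrophil names 7 genes were measured. Of these, 6 were at least 1.5-fold lower, against the same 2.12% of all, and 0 were higher by that much, against 1.87% of all. The 7 genes had a median of -0.80 and a summed linear signal of 2142 in water and 1429 in atropine. Their differences ran from -1.43 for the gelatinase gene mmp9 to 0.16 for srgn, the brightest of the 7, for a granule proteoglycan. The second brightest, mmp13a, stood at 9.66 in water and 8.46 in atropine, a difference of -1.20. The probe sets used for mmp13a and for mpx, another of the 7, are of doubtful specificity by name. With such probe sets dropped, the neutrophil median was -0.72. How specific each of these 7 genes is to neutrophils was not tested either. All measured genes of both lists passed the level filter, where 5294 of all 8793 named genes did. Under a scaling to polyadenylated control transcripts, the macrophage median was -0.0067 and the neutrophil median -0.32, where the median of all compared genes was 0.47. The part of leukocyte number in the values of cfd and c1qc was not tested.

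Liver transcripts were low on both arrays. Of 18 hepatocyte names 13 genes were measured. Of these, 11 lay below the median on both arrays, where 5294 of all 8793 named genes passed the level filter. Among the 11 were the liver fatty acid-binding protein gene fabp10a (2.97 in water and 3.23 in atropine) and the apolipoprotein gene apoa1a (2.79 and 2.81). The fibrinogen genes fga (2.81 and 2.71) and fgb (2.65 and 2.60) were also among them. The exceptions were tfa, for transferrin, at 6.69 and 6.93, and hp, for haptoglobin, at 7.04 and 6.56, whose differences of 0.24 and -0.49 had opposite signs. The summed linear signal of these 2 was 235.2 in water and 216.0 in atropine. Red blood cell genes differed the other way from cfd and c1qc. All 9 measured erythroid genes were higher in atropine, where 47.8% of all compared genes were, with a median of 0.73, from 0.20 for hbaa1 to 1.33 for hbba2, both globin genes, and a summed linear signal of 12692 in water and 16756 in atropine. The 11 measured heart muscle genes had a median of -0.22. Their differences ran from -1.41 for tnnc1a, a troponin C gene, to 0.09 for atp2a2a, the calcium pump of the sarcoplasmic reticulum. Of the 11, 2 were at least 2-fold lower, tnnc1a and the myosin gene myh7 (-1.19), where 0.359% of all compared genes were. None of the others reached 1.5-fold in either direction. How specific each of the 11 genes is to heart muscle was not tested.

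**Figure D3:**
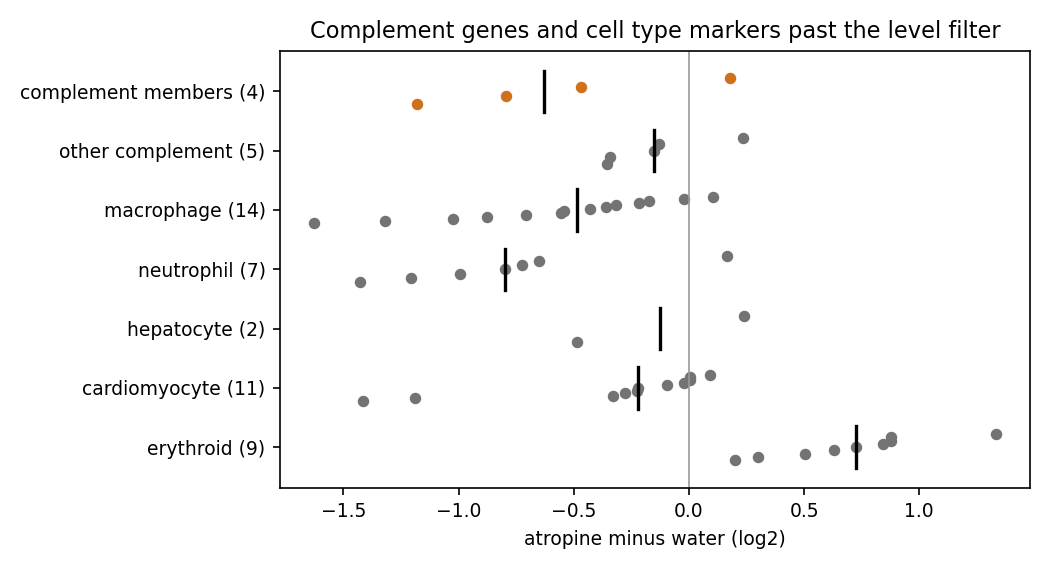
Difference atropine minus water (log2, horizontal axis) of each gene past the level filter in the complement list, the other complement genes and 5 marker lists, 1 point a gene, with the median of each list as a vertical bar and the number of genes in brackets. The complement members (-1.18 to 0.18) overlap in range with the other complement, macrophage, neutrophil, hepatocyte and cardiomyocyte points, and the erythroid points lie from 0.20 upward.

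How the arrays are scaled sets how far these differences reach. Median centring, quantile normalization and a loess fit left each of the 4 genes on the same side of 0 and of 1.5-fold. Median centring and quantile normalization could move a gene only a little, because the sorted values of the arrays already lay within 0.149 of each other. A scaling to the heart muscle genes would move the median of all compared genes to 0.21. A scaling to 13 probe sets for bacterial polyadenylated control transcripts would move it to 0.47. These 13 were lower on the atropine array by a median of -0.48, with a range of -0.86 to -0.13, so the control scaling rests on a wide spread. The heart muscle genes had a still wider range, -1.41 to 0.09, around their median of -0.22. Of the genes at least 1.5-fold apart, 53.1% were lower in atropine as deposited, 10.4% under the first of these scalings and 1.05% under the second. The lower value of cfd stayed past 1.5-fold in both, at -0.96 and -0.70. The difference of c1qc came under 1.5-fold, which is 0.585 on the log2 scale, at -0.57 and -0.31, the first by little. The value of c6 came to -0.25 and, with the sign turned, 0.0117, and that of cfp to 0.40 and 0.66. Set against the median of the macrophage list, an alternative chosen after seeing the data, cfd differed by -0.69, c1qc by -0.31, c6 by 0.0184 and cfp by 0.66. Against that of the neutrophil list, also chosen after seeing the data, cfd differed by -0.38, c1qc by 0.0065, c6 by 0.33 and cfp by 0.98. These scalings put the median of all compared genes at 0.47 and 0.79. Each subtracts 1 constant from all genes, so cfd, c1qc and c6 had to stay below that median, where they lay as deposited. The order cfd, c1qc, c6, cfp from lowest to highest is the same under these 4 scalings, because each shifts all genes alike.

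**Figure D4:**
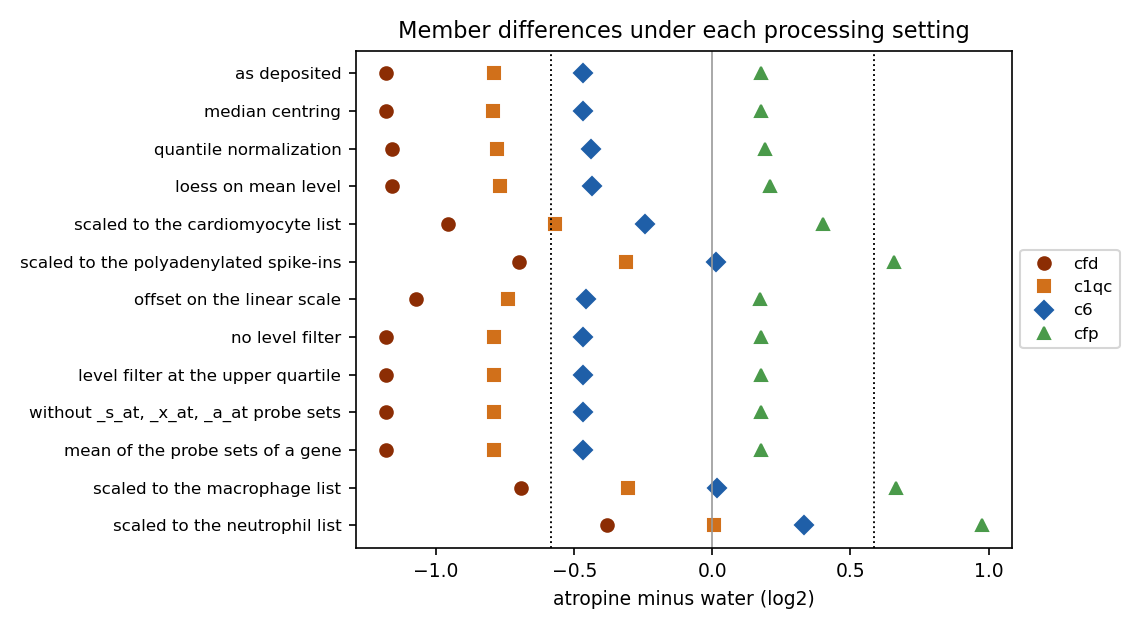
Difference atropine minus water (log2, horizontal axis) of cfd (circles), c1qc (squares), c6 (diamonds) and cfp (triangles) under each processing setting, with dotted lines at 1.5-fold. The value of cfd lies below 0 and that of cfp above 0 under all settings drawn, while c1qc reaches 0 only under the neutrophil scaling (0.0065) and c6 lies at or above 0 under the control, macrophage and neutrophil scalings.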

How the data were processed

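Total RNA of pooled whole hearts was labelled with biotin by an Affymetrix 3' IVT protocol, per the labels' protocols. The deposited table holds 1 value per probe set and array, taken here as log2 from its range. How the authors normalized it is not stated in any label or header. Once sorted, the values of both arrays were within 0.149 of each other, so a global shift cannot be seen. Gene names came from the platform annotation, updated through Entrez identifiers to a RefSeq gene table (GRCz12tu), which held 99.2% of the 10795 with 1 symbol. Those with several (135) or no symbol (4572) were not named. The lists held 146 names: 74 were found as symbols and 7 as synonyms, and 65 were not found. For a gene with several probe sets the brightest one, by mean over both arrays, was used. No test was possible, so 1.5-fold and 2-fold are rules of size. The members and lists were chosen with earlier results of these data known. Named genes were all members, the other complement genes past the filter, and for each marker list the brightest and the lowest and highest differences. Other genes named are examples chosen after their values were seen. The calculation was tested on simulated arrays with planted differences of 1.5 on the log2 scale, well past both rules of size. That run does not show how many 1.5-fold differences between single arrays would recur. Python 3.11.15, numpy 2.4.6, pandas 2.3.3 and statsmodels 0.14.6 were used.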

Additional observations from a re-analysis of the deposited data

How the results depend on the processing

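The number of members at least 1.5-fold lower, 2 as deposited, was 1 under scaling to the heart muscle, polyadenylated control or macrophage genes and at the 2-fold threshold, and 0 under scaling to the neutrophil genes. Over all compared genes the share at least 1.5-fold lower, 2.12% as deposited, also fell under these scalings. It was 0.66%, 0.30%, 0.28% and 0.11% under the heart muscle, control, macrophage and neutrophil scalings, and 0.359% were lower at the 2-fold threshold. The number at least 1.5-fold higher was 1 under the last 3 of these 4 scalings (polyadenylated controls, macrophage, neutrophil), where 28.6%, 29.6% and 81.4% of all compared genes were. The median of the members was -0.41, -0.15, -0.14 and 0.17 under the heart muscle, control, macrophage and neutrophil scalings, -0.39 with no level filter and -0.79 without c6. Under the same 4 scalings c1qc was at -0.57, -0.31, -0.31 and 0.0065. Under the last 3, c6 was at 0.0117, 0.0184 and 0.33 and cfp at 0.66, 0.66 and 0.98, and under the last cfd was at -0.38. These scalings subtract 1 constant from all genes, which accounts for the shifts. Of all compared genes 112 were at least 1.5-fold lower as deposited, 35 and 16 under the heart muscle and control scalings, 62 when 16 was added to the linear values and 74 with the filter at the upper quartile, which tests fewer genes. The median of the other complement genes was 0.0728 and 0.33 under those scalings and -0.0465 with no filter. Under the other alternatives that were run, cfd, c1qc, c6 and cfp kept their sign and their side of 1.5-fold; c3a.1 and c9, below the level filter, were not followed. These were median centring, quantile normalization, loess (span 0.4), the addition of 16, the filters, dropping probe sets of doubtful specificity by their name, and the mean of the probe sets. The filters, the dropping and the mean could not change the values of cfd, c1qc, c6 and cfp. Each of these genes had 1 probe set, without a doubtful name and above the upper quartile, 5.98. Median centring and quantile normalization could move them only a little, because the sorted arrays already lay within 0.149 of each other. The macrophage, neutrophil, symbol-only and 2-fold settings were chosen after seeing the data. No paired analysis was possible because each group has 1 array. Signal over background is unknown here.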

Other observations

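The C1q chains share their globular domain with a wider family of secreted proteins. Relatives were looked up by gene name after the values of c1qc were seen, so others of the family may be missing. Of the 6 genes found in this way, 2 passed the level filter, where 5294 of all 8793 named genes did. The gene c1qtnf5, for a C1q and tumour necrosis factor-related protein, stood at 6.06 in water and 5.09 in atropine, a difference of -0.97 or 1.96-fold lower, next to -0.79 for c1qc. The other, mmrn2a, for an endothelial multimerin, stood at 7.17 and 7.22. Of all compared genes, 2.12% were at least 1.5-fold lower in atropine. The remaining 4, c1ql3b, c1qtnf4, cbln1 and cbln11, had both values below the median.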
